A study of Homo sapiens with 66 samples.

Results

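The anti-apoptotic BCL2 family is described here through 5 genes, BCL2, BCL2L1, BCL2L2, MCL1 and BCL2A1. They were picked by symbol among 57992 gene identifiers counted in every library. No measured value is in the rule, but these genes and the gene lists below were chosen with earlier results of these data known. RNA was sequenced from 11 cell lines of acute myeloid leukemia (AML), NB-4, HL-60, KASUMI-1, F-36P, THP-1, NOMO-1, MV-4-11, MOLM-13, MONO-MAC-6, OCI-AML3 and OCI-AML2 (the labels leave out the hyphens). Each line was left in media alone (untreated) or exposed for 24 hours to etoposide, a poison of topoisomerase II that leaves breaks in DNA, at the IC50 of that line. There were 3 libraries per line and condition, 66 in all, each made from the pooled cells of 3 wells. The study's methods speak in general of biological replicates, in number 3, while the labels do not say that the libraries came from separate cultures, in which case p-values would measure a partly technical spread. The lines thus differ in dose as well as in origin, and a difference between treated lines cannot be told apart from a difference of concentration. No genotype, allele or second agent was varied between the conditions of a line. Between lines, the study's culture conditions differed in medium, serum and supplements. F-36P alone was grown with granulocyte-macrophage colony stimulating factor. Libraries held between 17997404 and 24101670 reads on genes.

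The etoposide libraries of OCI-AML2 were discarded by the study after quality control of the raw reads, and they also stood apart here. None of 13604 genes was called in that line by edgeR's quasi-likelihood test, 3.35% of them had an unadjusted p below 0.05, and DESeq2 and the exact test of edgeR also called 0. An FDR below 0.05 alone was reached by 3 genes with the first tool, 16 with DESeq2 and 20 with the exact test. CDKN1A, the p53-driven cell cycle inhibitor, rose by 1.86 to 5.46 on the log2 scale in the other 10 lines. Here it was 1 of the 3, with a log2 fold change of 0.73 (FDR 0.000289 by edgeR), short of 2-fold. The others, MDM2 (log2 0.47, FDR 0.00593) and ZMAT3 (0.53, FDR 0.0192), are p53 targets as well. OCI-AML2 was therefore kept for untreated levels, and its etoposide libraries are given apart.

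Proteins of the BCL2 family decide whether the outer membrane of the mitochondrion is opened. The effectors BAX and BAK1 form the pores through which cytochrome c leaves and caspases are started. The anti-apoptotic members hold them in check by binding the BH3 helix of the effectors and of the BH3-only proteins, such as BBC3 (PUMA), PMAIP1 (NOXA), BCL2L11 (BIM) and BMF, which carry stress signals. The BH3-only proteins are selective: NOXA binds MCL1 and BCL2A1, BAD binds BCL2, BCL-xL and BCL-w, and BIM and PUMA bind all of them. BCL2 is the target of venetoclax, which is used against AML, and MCL1, BCL-xL and BCL2A1 are known routes of resistance to it. MCL1 protein turns over fast and is under strong control after transcription, so its RNA is only part of its amount.

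BCL2 (ENSG00000171791.12) lies on the minus strand at chr18:63123346-63320128 of GRCh38, with 12612 bases of exon in gencode release 44. BCL2L1 (ENSG00000171552.12), which encodes BCL-xL, lies on the minus strand at chr20:31664452-31723989 with 4197 bases of exon. BCL2L2 (ENSG00000129473.9), which encodes BCL-w, lies on the plus strand at chr14:23298790-23311751. Of its 4840 exon bases, 4025 are not shared with the read-through gene BCL2L2-PABPN1, which held 1 to 30 reads per library, 1.42% of the BCL2L2 reads. MCL1 (ENSG00000143384.12) lies on the minus strand at chr1:150560895-150579738 and has 5894 of 6222 exon bases free of overlap on its strand. BCL2A1 (ENSG00000140379.7), which encodes BFL-1 or A1, is the short one, with 995 exon bases at chr15:79960892-79971196 on the minus strand. Reads were counted per gene, so the splice forms of opposite function that MCL1 and BCL2L1 are known to make were not resolved.

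The RefSeq promoter table of GRCh38.p14 held starts for 3 of the 5 members (BCL2, BCL2L1 and BCL2A1). The sequence before the BCL2A1 start is shown because BCL2A1 is the member that was called induced. It covers 250 bases at chr15:79971197-79971446, is read on the minus strand towards the gene, and has the letters TATAAA in capitals.
BCL2A1: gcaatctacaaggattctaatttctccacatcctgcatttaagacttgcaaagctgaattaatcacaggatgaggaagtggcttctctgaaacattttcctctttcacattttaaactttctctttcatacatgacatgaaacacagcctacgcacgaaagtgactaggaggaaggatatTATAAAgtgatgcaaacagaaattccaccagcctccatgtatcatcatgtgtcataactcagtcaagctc
Its G and C made up 38.8% of the bases (percentile 10.8 of 35116 promoters, whose median was 58.0%), and it held 2 CpG against a median of 11. The TATAAA began 70 bases before the start, and 10.7% of the promoters held these letters on either strand. The window before the BCL2 start of that table, which lies inside the gene as gencode draws it, had 70.0% G and C, 24 CpG and no TATAAA. Of the pair of BCL2L1 starts, the window before the first also lies inside its gene and had 60.4% G and C and no TATAAA. The window before the second, with 26 bases inside the gene, had 17 CpG and held TATAAA in 2 places. The letters TGANTCA (an AP-1 motif, in 6.6% of promoters) and GGGCGG (a GC box, in 42.6%) were in none of these windows on either strand. A shortened kappaB motif (its 3 first and 2 last bases fixed, found in 54.4% of promoters on either strand) occurred 0 times before BCL2A1 and before either BCL2L1 start, and 3 times before BCL2. These are matches of letters in a window and say nothing of whether a factor binds.

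The lines were checked against marker genes. The myeloid genes SPI1, CD33 and PTPRC were read in every line, with mean untreated levels of 109 to 210 CPM (reads per 1e6 reads) for SPI1, 68.0 to 149 CPM for CD33 and 33.6 to 557 CPM for PTPRC. F-36P differed, with 0.569 CPM of CEBPA and 1.01 CPM of MPO, the myeloperoxidase of granulocyte precursors. It had the erythroid genes GATA1 at 262 CPM (at most 14.9 in the other lines), KLF1 at 239 CPM (at most 2.19), EPOR at 202 CPM (at most 25.3) and ALAS2 at 140 CPM (at most 0.0322). Among 5 lymphoid markers the sum was 0.523 to 10.7 CPM in untreated lines other than NOMO-1, which had 173.

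All 5 members differed between the 11 untreated lines (edgeR quasi-likelihood F test, adjusted p between 8.73e-34 for BCL2L1 and 1.82e-16 for BCL2L2), but so did 99.4% of the 18130 genes tested. By rank of F among all genes, BCL2L1 stood at percentile 97.4, BCL2 at 85.5, BCL2A1 at 76.9, MCL1 at 74.8 and BCL2L2 at 51.8. The level of a gene between lines is given in CPM on TMM-normalized library sizes, and levels of different genes are compared only per kilobase of exon, below.

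BCL2 had a mean untreated level of 53.5 ± 4.1 CPM in F-36P (SD, n = 3, as for all levels here), the lowest, and 324 ± 17 in OCI-AML2, the highest, a 6.05-fold span. KASUMI-1 (89.8), NB-4 (107) and MONO-MAC-6 (122) followed F-36P, each with libraries clear of its neighbours. The middle of the order, from NOMO-1 (184) through MOLM-13 (206), HL-60 (215), OCI-AML3 (223) and MV-4-11 (224) to THP-1 (239), was a run of lines whose neighbours overlapped. OCI-AML2 was clear of THP-1.

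BCL2L1 set F-36P apart. Its libraries there had 347, 304 and 295 CPM, while the mean of the other 10 lines ran from 23.2 in MONO-MAC-6 to 46.9 in NOMO-1. F-36P was thus 6.72-fold above the next line and 13.6-fold above the lowest, with no overlap. KASUMI-1 (46.2 ± 3.9) and NOMO-1 (46.9 ± 2.7) overlapped each other and stood above NB-4 (31.1 ± 1.4). The rest lay between 23.2 and 29.7 CPM. BCL2L1 is known as a survival gene of maturing red cells, and F-36P was also the line with erythroid markers. The part of the erythroid state in its level was not tested, nor was that of the growth factor given to F-36P alone.

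MCL1 had the highest untreated levels in THP-1 (526 ± 5.5 CPM) and OCI-AML3 (517 ± 7.2), whose libraries overlapped. MONO-MAC-6 came next at 350 ± 24, and HL-60 was lowest at 188 ± 10, 2.8-fold below THP-1. In between, MV-4-11 (231) overlapped NB-4 (234) and NB-4 overlapped NOMO-1 (245), KASUMI-1 (254) was clear of both its neighbours, and MOLM-13 (291) overlapped both OCI-AML2 (269) and F-36P (293).

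BCL2L2 varied least, from 21.4 ± 4.0 CPM in F-36P to 46.3 ± 2.2 in THP-1, 2.16-fold. Of 10 neighbouring pairs in its order, 7 overlapped. THP-1, OCI-AML3 (45.5) and MONO-MAC-6 (43.0) formed the high end, and F-36P, NOMO-1 (22.6), MOLM-13, OCI-AML2 (both 23.2) and KASUMI-1 (24.8) the low end.

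BCL2A1 was a gene of few reads. No read was found in the 3 untreated libraries of MV-4-11, which allows up to 0.0514 CPM over the group, counting error only. KASUMI-1 had 5 reads over its 3 untreated libraries (3, 2 and 0). HL-60 (0.574 CPM), F-36P (0.736) and OCI-AML3 (0.847) overlapped one another, THP-1 had 1.53, MOLM-13 2.17 and OCI-AML2 2.71. NB-4 (5.93 ± 1.4) and MONO-MAC-6 (6.95 ± 0.78) overlapped, and NOMO-1 was highest at 16.2 ± 1.1 CPM, 2.33-fold above MONO-MAC-6. The order of BCL2A1 was not that of the monocyte markers: their untreated sum was highest in OCI-AML2 (5325 CPM), MONO-MAC-6 (4267) and MOLM-13 (2042), against 749 in NOMO-1 and 66.5 in NB-4.

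**Figure D1:**
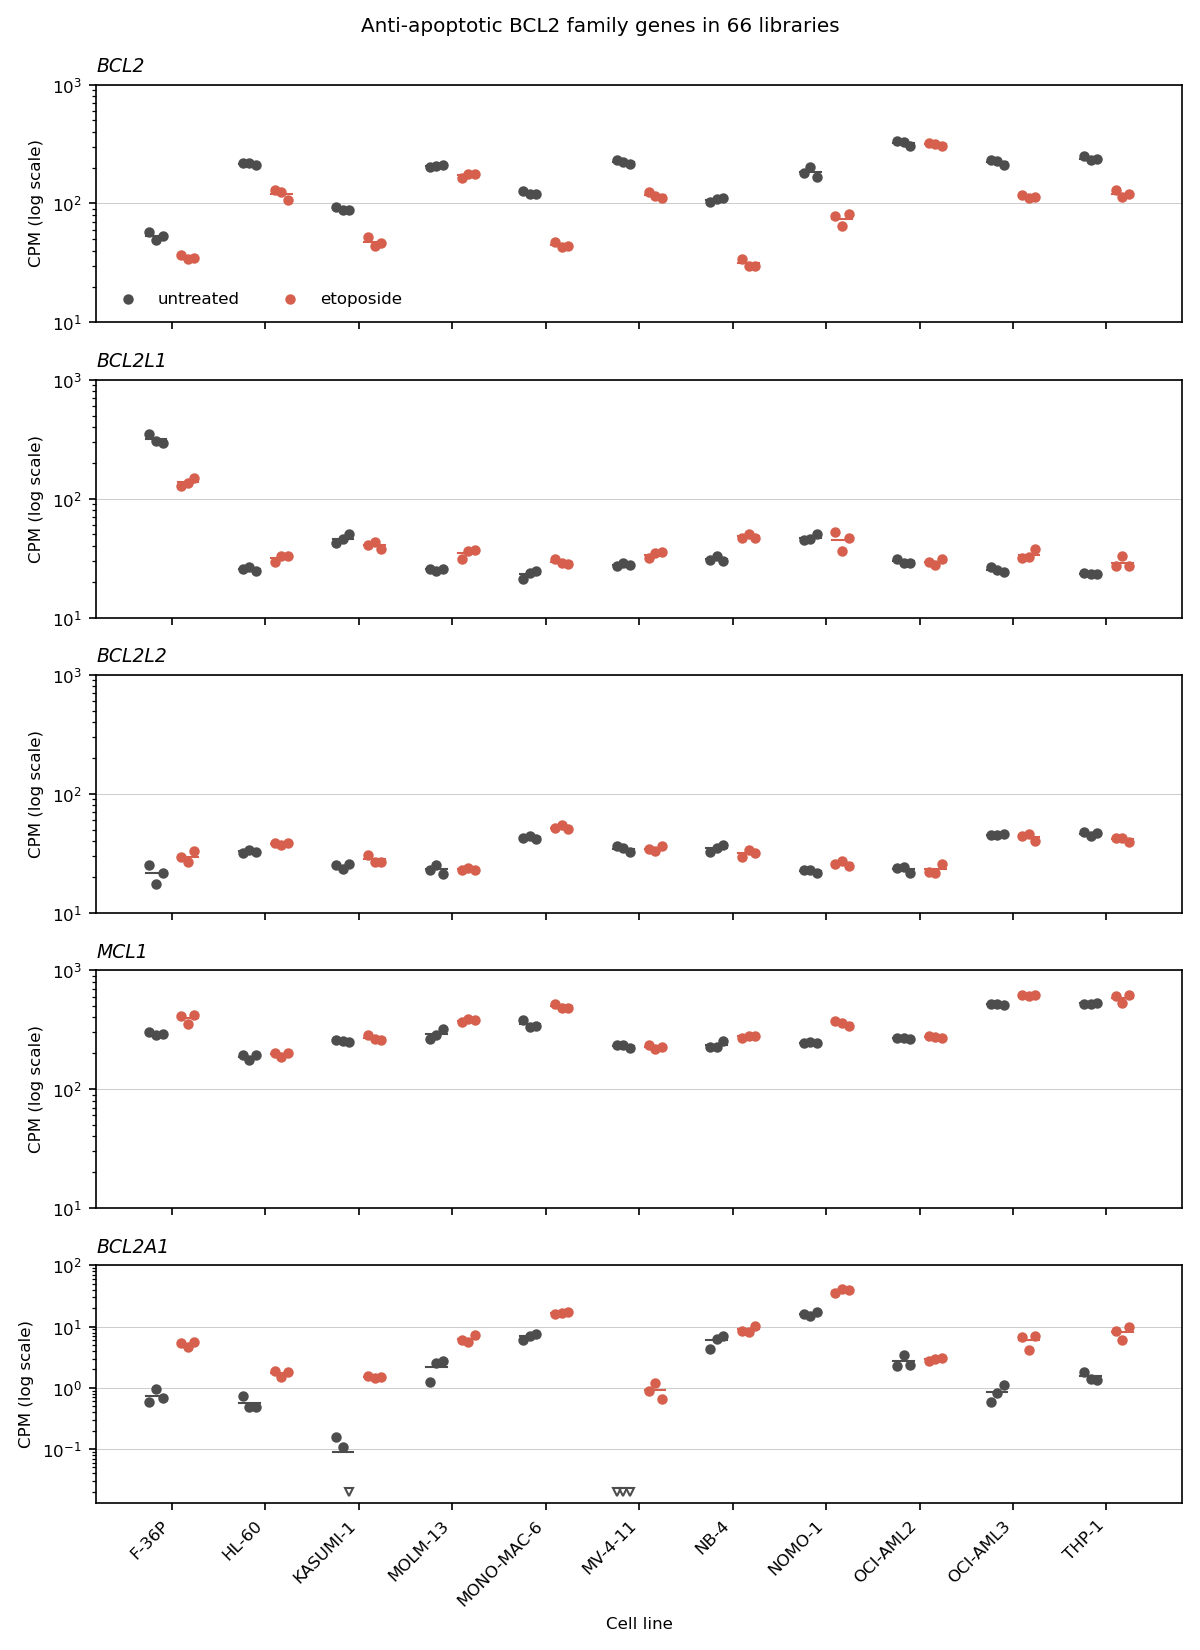
CPM of each of the 5 genes (one panel each, log axis) in every library, by cell line, with untreated libraries in dark grey and etoposide libraries in red; short bars are means of 3 libraries and open triangles mark libraries without a read. BCL2L1 in F-36P lies 6.72-fold above the next line, the etoposide points of BCL2 lie below the untreated ones in 10 lines and those of BCL2A1 above them in the same 10 lines, OCI-AML2 being the exception.

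Etoposide was then compared with untreated within each line (edgeR quasi-likelihood test, Benjamini-Hochberg adjustment over all genes tested in that line). To be called induced or repressed, a gene had to change over 2-fold at an FDR below 0.05. Where the FDR alone is used, it is said so. Fold changes come from the fit of the line and can differ a little from the ratio of the levels. Cells of bulk samples were not counted, so fewer cells with a transcript and less of it per cell cannot be told apart. All 5 members were tested in all 10 lines, which gave 50 comparisons. Of these, 9 were called induced, all of BCL2A1, and 5 were called repressed, 4 of BCL2 and 1 of BCL2L1. Of all tests pooled over these lines, 11.1% were called induced and 3.96% repressed. Some of the BCL2A1 calls could only be of induction, for a reason given with that gene below.

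BCL2 fell in 10 of 10 lines with an FDR below 0.05, and every etoposide library lay below every untreated library of its line. Pooled over the 10 lines, 24.4% of all tests were lower with an FDR below 0.05, and 26.6% had groups that did not overlap in this direction. In NB-4 the untreated libraries had 103, 108 and 110 CPM and the etoposide libraries 34.3, 30.0 and 30.0. This was the deepest drop, a log2 fold change of -1.82 ± 0.093 (SE, FDR 9.21e-10 by edgeR), 3.52-fold. MONO-MAC-6 went from 127, 119 and 121 CPM to 47.2, 43.2 and 43.6, a log2 fold change of -1.45 ± 0.055 (FDR 2.00e-09). NOMO-1 went from 180, 203 and 168 CPM to 78.1, 64.0 and 81.2, a log2 fold change of -1.28 ± 0.11. In THP-1, libraries of 250, 230 and 236 CPM stood against 130, 112 and 119, with a log2 fold change of -1.03 ± 0.12. That call lies at the edge of the rule: the log2 value without untreated replicate 1 was -0.98, and without etoposide replicates 2 or 3 it was -0.96 and -0.99.

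These 4 lines were the ones where BCL2 was called repressed. Among all genes, the share called repressed was 4.82% in NB-4, 4.47% in MONO-MAC-6, 4.43% in NOMO-1 and 3.46% in THP-1. In 4 other lines BCL2 came just short of 2-fold: MV-4-11 (log2 -0.98), KASUMI-1 (-0.97), OCI-AML3 (-0.96) and HL-60 (-0.86). Here the share of all genes called repressed was 2.63% in MV-4-11, 6.52% in KASUMI-1, 1.36% in OCI-AML3 and 1.24% in HL-60. The smallest drops were in F-36P, from 53.5 to 35.2 CPM (log2 -0.65 ± 0.12), where BCL2 was already lowest, and in MOLM-13, from 206 ± 3.6 to 173 ± 8.9 CPM (log2 -0.31 ± 0.064, FDR 0.00216). In F-36P 6.67% and in MOLM-13 3.37% of genes were called repressed.

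BCL2A1 moved the other way, higher in 10 of 10 lines with an FDR below 0.05 and with no overlap of libraries in any of them. Pooled over the lines, 27.7% of tests were higher by that FDR and 32.7% did not overlap in this direction. It was called induced in 9 lines. In MV-4-11 and KASUMI-1, with 0 and 5 untreated reads, it passed the filter on low counts only through its etoposide libraries. HL-60, with 15, 10 and 9 untreated reads against a minimum count of 10, lay at the edge of that filter. A test of BCL2A1 that depends on high treated libraries can only give induction, so such calls add little to the count. In NOMO-1, where it was highest, the libraries had 340, 325 and 345 reads untreated and 751, 913 and 868 after etoposide, 16.2 ± 1.1 against 38.6 ± 3.1 CPM and a log2 fold change of 1.28 ± 0.11 (FDR 2.15e-06). MONO-MAC-6 rose from 6.95 ± 0.78 to 16.6 ± 0.55 CPM (log2 1.26 ± 0.097). These lines had the smallest induction among the 9 and the highest levels after it.

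The other lines called induced started lower and had larger folds than NOMO-1 and MONO-MAC-6. Among them the fold did not follow the starting level: HL-60 started lower than THP-1 (1.53 CPM) and had a smaller fold. A fold has the starting level as its divisor, so the relation is partly built in, and it was not tested. OCI-AML3 rose from 12, 17 and 23 reads to 144, 94 and 155 (log2 2.81 ± 0.28), F-36P from 10, 17 and 13 to 116, 91 and 114 (log2 2.77 ± 0.23), and THP-1 from 35, 27 and 26 to 184, 122 and 214 (log2 2.38 ± 0.23). KASUMI-1 had 3, 2 and 0 reads untreated and 33, 28 and 31 treated (log2 3.91 ± 0.47), a fold that rests on 5 untreated reads and ran from 3.39 (without untreated replicate 3) to 4.55 (without untreated replicate 1) on the log2 scale. In MV-4-11, with no untreated read, the etoposide libraries had 22, 30 and 16 reads, at least 17.7-fold above the limit set by 3 reads over the group. HL-60 (0.574 to 1.73 CPM, log2 1.55 ± 0.29) and MOLM-13 (2.17 to 6.36 CPM, log2 1.49 ± 0.25) were called induced as well. NB-4 was not: its libraries had 88, 118 and 129 reads untreated and 191, 179 and 225 treated, which do not overlap, but the log2 fold change was 0.56 ± 0.18 (FDR 0.0125).

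The share of all genes called induced was 24.3% in F-36P, 14.6% in KASUMI-1, 13.2% in NB-4, 12.5% in MV-4-11, 8.59% in MOLM-13, 8.53% in MONO-MAC-6, 8.34% in NOMO-1, 7.18% in OCI-AML3, 6.38% in THP-1 and 5.34% in HL-60. With a filter of a mean of at least 5 CPM instead, BCL2A1 could be tested in 3 lines only, and was called induced in 2. Mean BCL2A1 levels after etoposide still spanned the lines from 0.909 CPM in MV-4-11 to 38.6 in NOMO-1.

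MCL1 was called in no line. It was higher with an FDR below 0.05 in 5 of 10 lines. Of all tests pooled over the lines, 27.7% were higher by that FDR and 24.4% lower, the background for counts by FDR alone here and below. NOMO-1 had 242, 247 and 245 CPM untreated and 376, 359 and 342 treated (log2 0.58 ± 0.073, FDR 4.48e-05), and MONO-MAC-6 had 378, 333 and 340 against 522, 479 and 485 (log2 0.50 ± 0.054). F-36P (log2 0.39), MOLM-13 (0.31) and OCI-AML3 (0.26) were the other 3. HL-60 (0.03), KASUMI-1 (0.04) and MV-4-11 (-0.08) lay within 2 standard errors of 0. NB-4 (0.20, FDR 0.0503) and THP-1 (0.10, FDR 0.501) did not pass.

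BCL2L1 was called repressed in F-36P, where 347, 304 and 295 CPM stood against 128, 135 and 148 (log2 -1.25 ± 0.11, FDR 8.75e-06). Even so, treated F-36P kept the highest BCL2L1 of all lines, 137 ± 11 CPM against at most 48.1 in the others. Elsewhere nothing passed 2-fold. The gene was higher with an FDR below 0.05 in 5 lines, most in NB-4 (30.8, 32.7 and 29.9 CPM against 46.9, 50.4 and 47.1, log2 0.58 ± 0.094), then in OCI-AML3 (0.44), MOLM-13 (0.38), MONO-MAC-6 (0.34) and MV-4-11 (0.24). HL-60 (0.28), THP-1 (0.27), KASUMI-1 (-0.24) and NOMO-1 (-0.03) did not pass. Over the same treatment in F-36P, the erythroid genes KLF1 (log2 -1.35, called repressed), EPOR (-0.90) and GATA1 (-0.56) were lower with an FDR below 0.05, while ALAS2 (0.07) was not. Their part in the BCL2L1 change was not tested.

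BCL2L2 changed least. It was called in no line and was higher with an FDR below 0.05 in 2, F-36P (log2 0.43 ± 0.15, from 21.4 to 29.7 CPM) and MONO-MAC-6 (0.28 ± 0.057, from 43.0 to 52.1 CPM). The other 8 values ran from -0.20 in THP-1 to 0.23 in NOMO-1.

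**Figure D2:**
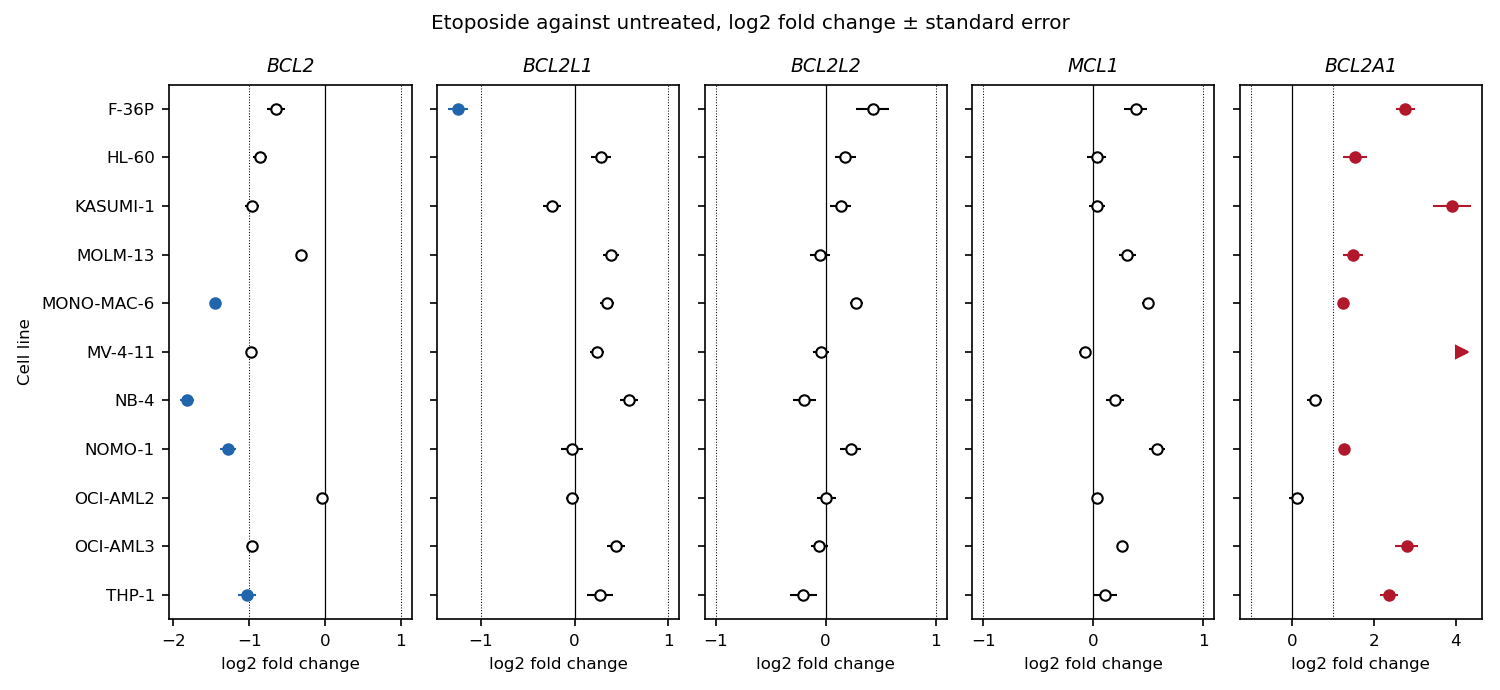
Log2 fold change of each gene in etoposide against untreated libraries (x axis, a scale for each panel) by cell line (y axis), with bars for the standard error; filled points were called induced (red) or repressed (blue), open points were not, dotted lines mark 2-fold, and the triangle is a lower bound in a line without untreated reads. All 10 lines other than OCI-AML2 lie left of 0 for BCL2 and right of 0 for BCL2A1, while F-36P stands alone for BCL2L1 at -1.25.

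Taking 1 value per line, the mean change of log2 CPM (prior count of 2) over the 10 lines was tested by exact two-sided sign-flip permutation, adjusted over 19974 genes. BCL2 was lower by a mean log2 change of -1.002 ± 0.43 (SD over 10 lines, lower in 10, exact permutation p = 0.00195, adjusted p = 0.0145). BCL2A1 was higher by 2.04 ± 0.93 (higher in 10, exact permutation p = 0.00195, adjusted p = 0.0145), and MCL1 by 0.26 ± 0.20 (higher in 9, exact permutation p = 0.00391, adjusted p = 0.0197). BCL2L1 (0.13 ± 0.52, adjusted p = 0.605) and BCL2L2 (0.10 ± 0.21, adjusted p = 0.263) did not pass. The p of 0.00195 is the smallest this test can give with 10 lines. It was reached by 2682 genes, 33.3% of all genes passed in either direction, and the median of the mean change over all genes was 0.12.

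The size of the change differed between lines for each member (edgeR quasi-likelihood F test of treatment by line over 60 libraries, adjusted p = 1.75e-16 for BCL2L1, 2.07e-15 for BCL2, 2.10e-10 for BCL2A1, 3.99e-07 for MCL1 and 7.47e-05 for BCL2L2). Of all genes, 74.5% passed this test. By rank of F, BCL2L1 stood at percentile 96.4, BCL2 at 95, BCL2A1 at 84.6, MCL1 at 70.4 and BCL2L2 at 55.2. The value for BCL2L2 rested on the third libraries, since without replicate 3 its adjusted p was 0.13.

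The balance among the members was taken as the share of each in their summed reads per kilobase of unshared exon, in every library. Exon lengths are those of gencode release 44, while the reads were counted on release 25, and the share is a description with no test. MCL1 held the largest share in 10 of 11 untreated lines, from 46.5% in NOMO-1 to 71.0% ± 0.25 in OCI-AML3. The exception was F-36P, where BCL2L1 held 55.5% ± 1.4 and MCL1 36.9% ± 1.5. Counted as raw reads, which favour long genes, BCL2 led in untreated HL-60 and OCI-AML2. With MCL1 leading elsewhere, BCL2 was second in 6 lines (HL-60, MOLM-13, MV-4-11, OCI-AML2, OCI-AML3 and THP-1), BCL2L2 in MONO-MAC-6 and NB-4, BCL2L1 in KASUMI-1 and BCL2A1 in NOMO-1. The second place is close in places: in NB-4, BCL2L2 had 12.4% and BCL2 12.1%, and it passed to BCL2 in both NB-4 and MONO-MAC-6 when all exons were used for the length, as it did in NOMO-1 with the length of 1 representative transcript. NOMO-1 was the line in which BCL2A1 counted most, 18.3% ± 1.3 of the untreated sum, against 0 in MV-4-11 and 8.42% in NB-4.

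After etoposide MCL1 led in 10 of 10 lines. In F-36P the order turned: BCL2L1 went from 55.5% to 28.4% ± 2.1 and MCL1 from 36.9% to 58.3% ± 1.9. The turn was the same with all exons, with 1 representative transcript and with raw reads. The share of BCL2 was lower in all 10 lines, by 0.705 points in F-36P and up to 11.5 points in NOMO-1, and its mean went from 15.4% to 7.63%. The shares of MCL1 (57.6% to 63.1% in the mean) and BCL2A1 (4.05% to 8.46%) were higher in 10 of 10 lines. For BCL2A1 the steps ran from 1.40 points in MV-4-11 to 13.3 points in NOMO-1, where it reached 31.6% ± 2.8 of the treated sum, second to MCL1 at 49.6%. It was also second in treated MONO-MAC-6, with 13.5%. Shares add to 100, so a lower one raises the others. The MCL1 share overlapped between conditions in MONO-MAC-6. BCL2L1 had a higher share in 6 lines and BCL2L2 in 4.

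The ratio of MCL1 to BCL2 per kilobase does not depend on the other members. Untreated, it ran from 1.78 ± 0.078 in OCI-AML2 and 1.87 in HL-60 to 6.13 in MONO-MAC-6 and 11.8 ± 0.62 in F-36P. After etoposide it went up to 24.0 ± 1.8 in F-36P, 23.7 in MONO-MAC-6, 19.0 in NB-4, 12.1 in KASUMI-1 and 11.6 in OCI-AML3. The lowest treated ratios were 3.49 in HL-60, 4.14 in MV-4-11 and 4.66 in MOLM-13. The summed level of all 5 members per kilobase was compared as well. The treated sum was between 0.852 (F-36P) and 1.38 (NOMO-1) times the untreated one.

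**Figure D3:**
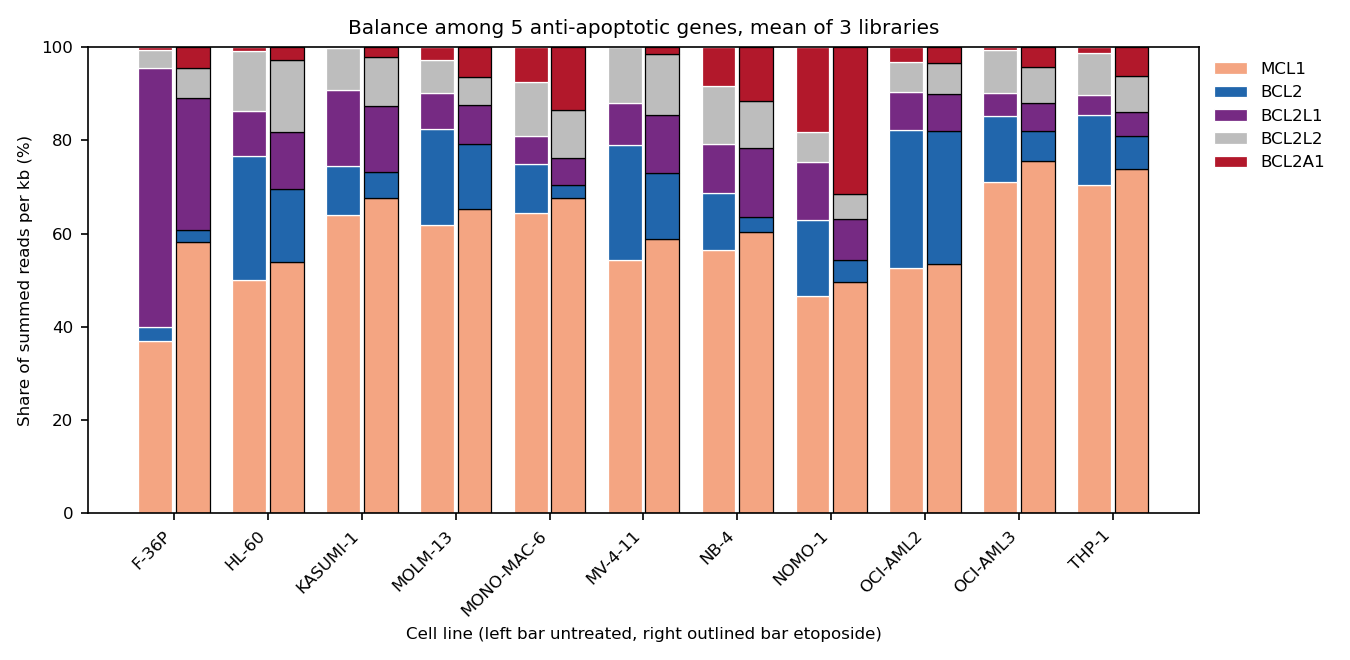
Share of each of the 5 genes (stacked, y axis in %) in their summed reads per kilobase of unshared exon, for each cell line, with the untreated mean of 3 libraries on the left and the etoposide mean, outlined, on the right. MCL1 is the largest block in all bars but untreated F-36P, the BCL2 block is smaller after etoposide in every line, within the spread of its libraries in OCI-AML2, and BCL2A1 reaches 31.6% in treated NOMO-1.

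The partners of these proteins were counted beside them, in lists chosen with earlier results of these data known. Of 8 BH3-only genes, 72 tests over 10 lines gave 18 called induced and 0 called repressed, with a median log2 fold change of 0.57. Of all tests pooled over the 10 lines, 11.1% were called induced and 3.96% repressed, which is the background for this and the following lists, and 4 of the 18 calls were in F-36P, where 24.3% of genes were called induced. BMF, which answers to loss of adhesion and other stress, was called induced in 5 lines, most in F-36P (log2 3.69) and KASUMI-1 (2.41). BBC3, a p53 target, was called in KASUMI-1, MOLM-13, NOMO-1 and OCI-AML3, up to a log2 of 2.48 in NOMO-1. PMAIP1, whose product binds MCL1 and BCL2A1, was called in F-36P, MONO-MAC-6, NB-4 and NOMO-1, up to 1.87 in NOMO-1. BID, which links death receptors to the mitochondrion, was called in none, and was lower with an FDR below 0.05 in 7. BCL2L11 was called in none, with 4 lines higher and 3 lower by FDR alone. BAD and BIK were called induced in 2 lines each and HRK in 1 of the 2 lines where it was tested.

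For the effectors, 23 tests gave 3 called induced and 0 called repressed (11.1% and 3.96% of all tests). These were BAX in OCI-AML3 (log2 1.13) and BOK in F-36P (3.34) and THP-1 (1.27). BOK had enough reads for a test in 3 lines only. BAK1 was called in none, with 5 lines higher and 1 lower by FDR alone. BCL2L10, the sixth anti-apoptotic gene, had enough reads for a test in NB-4 only, and was not called there. Among 5 genes whose products control the turnover of MCL1 protein, 50 tests gave 1 call, HUWE1 repressed in KASUMI-1 (log2 -1.10). By FDR alone, MARCHF5 was higher in 6 lines, HUWE1 lower in 5 and higher in 1, FBXW7 lower in 3 and higher in 1, BTRC higher in 1 and USP9X in neither direction.

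BCL2A1 is known to be driven by NF-kB and to be used by monocytes and granulocytes, so both sets of genes are given beside it. Of 14 NF-kB targets (BCL2A1 not among them), 134 tests gave 78 called induced and 1 called repressed (11.1% and 3.96% of all tests), with a median log2 fold change of 1.19. CXCL8 and BCL3 were called in 10 of 10 lines, RELB and ICAM1 in 8. By line, 12 of the tested targets were called induced in HL-60 and in MONO-MAC-6, 11 in KASUMI-1, 9 in F-36P and in NOMO-1, 8 in MV-4-11, 6 in THP-1, 5 in NB-4, 4 in MOLM-13 and 2 in OCI-AML3. The share of all genes called induced, given above by line, ran from 5.34% in HL-60 to 24.3% in F-36P. NB-4, where BCL2A1 was not called, had 5 targets called induced and TNFAIP3 called repressed (log2 -1.27). OCI-AML3, with 2 targets called induced, had a BCL2A1 log2 fold change of 2.81, and HL-60, with 12, had 1.55.

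Of 8 monocyte markers, 61 tests gave 39 called induced and 2 called repressed (11.1% and 3.96% of all tests), with a median of 1.29. CD86 was called induced in 10 lines, ITGAM in 9, CSF1R and LYZ in 5, and CD14 and CD163 in 4. FCGR1A was called induced in 2 lines and repressed in 2 and CD68 in none of the 3 lines where it was tested. Of the 2163 exon bases of CD68, only 398 are free of overlap with another gene on its strand. Reads in the overlap may have gone uncounted, so few or no reads do not show that CD68 was silent or unchanged. The mean summed level of the 8 markers was higher after etoposide in 9 of 10 lines, though with overlap in NOMO-1 (749 against 789 CPM). It was 91.7 against 537 CPM in KASUMI-1 and 464 against 1490 in OCI-AML3. In MONO-MAC-6 the sum was lower (4267 against 3658 CPM) although 5 of 7 tested markers were called induced there, while FCGR1A was called repressed (log2 -1.13) and LYZ was lower with an FDR below 0.05 (log2 -0.32). CD163 had no untreated read in 5 lines (F-36P, HL-60, KASUMI-1, MV-4-11 and NB-4), and CD68 none in HL-60 and NB-4. The part of NF-kB and of monocyte genes in the BCL2A1 change was not tested.

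Of 8 p53 targets, 80 tests gave 42 called induced and 0 repressed (11.1% and 3.96% of all tests), with CDKN1A and BTG2 in 10 lines and FAS in 7. Lines differed here too: the summed level of the 8 genes went from 411 to 3348 CPM in OCI-AML3 and from 160.5 to 214 CPM in HL-60. BCL2 was lower by a log2 of -0.96 in the first and -0.86 in the second. In MOLM-13, with the smallest drop of BCL2 (-0.31), the sum went from 707 to 3536 CPM. In NB-4, with the deepest (-1.82), it went from 184 to 286 CPM. The part of p53 in the BCL2 change was not tested. Of the erythroid markers, KLF1 was called induced in 1 line and repressed in 2, EPOR was called induced in 1, and GATA1 and ALAS2 were called in none. The 5 myeloid markers had 2 induced and 6 repressed among 50, with MPO repressed in 5 lines, and the lymphoid markers 8 induced and 1 repressed among 22, against the same background. For all lists the medians of all genes, line by line, lay between -0.03 and 0.09.

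**Figure D4:**
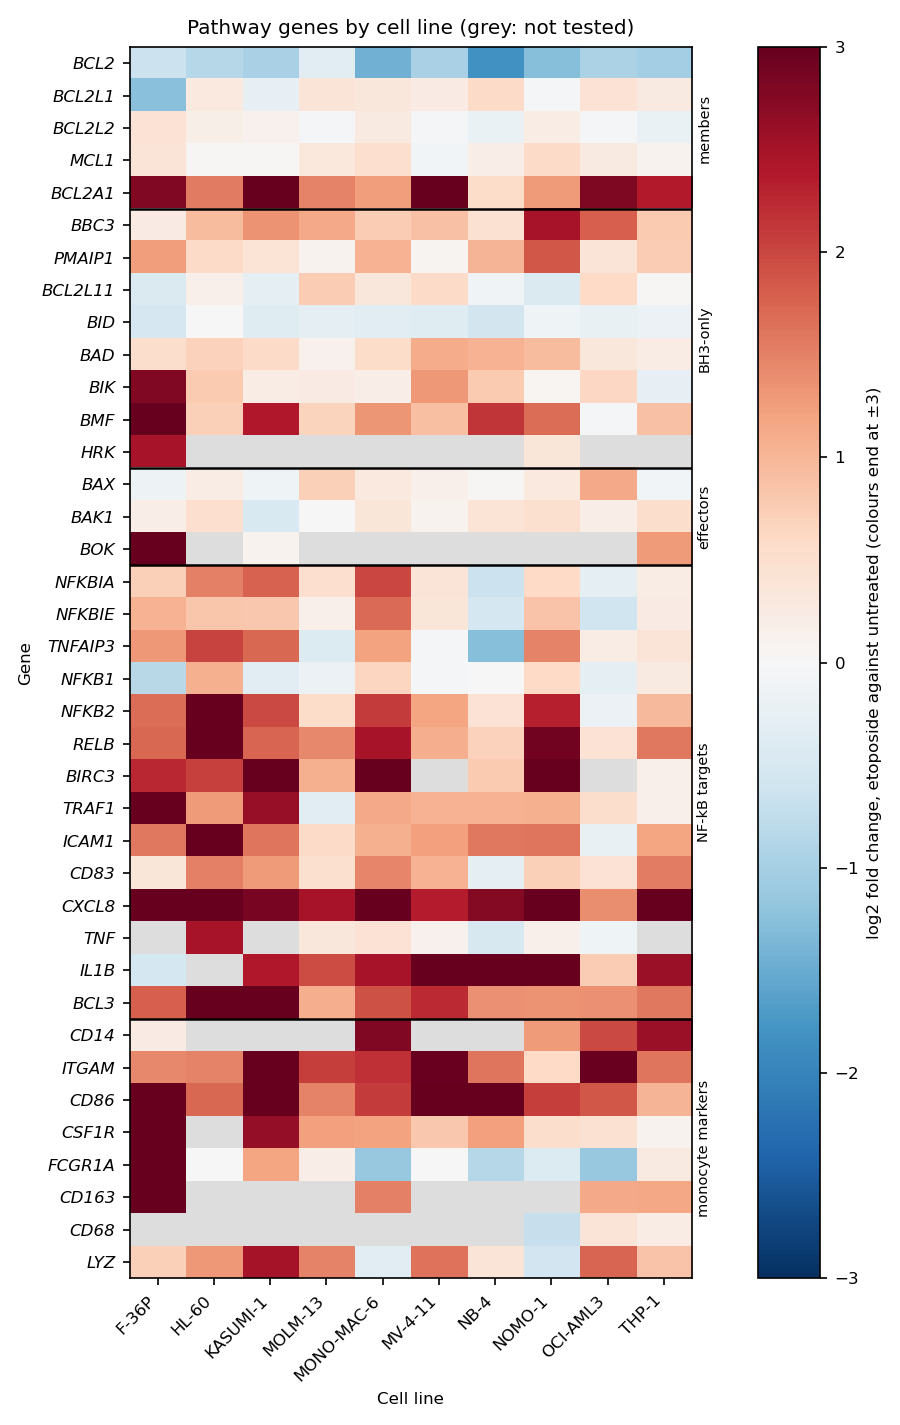
Log2 fold change (colour, red higher and blue lower after etoposide, colours end at 3 in either direction, grey not tested) of the 5 members, the BH3-only genes, the effectors, the NF-kB targets and the monocyte markers (rows) in 10 cell lines (columns). The BCL2 row is blue and the BCL2A1 row red in every column, and CXCL8, BCL3 and CD86 are red in all 10 columns.

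The genes whose untreated level followed each member most closely over the 11 lines were found by Pearson's r of mean log2 CPM among 13734 genes. The points share their libraries and depth, and the values are the highest among many genes, so they are a description. For BCL2L1 they were HEMGN (r = 0.991), ACHE (0.98) and CAVIN2 (0.974), of which HEMGN is a gene of red cell precursors. F-36P lies far from the other lines in BCL2L1. BCL2 was nearest to PRR14 (0.929), WNT6 (0.927) and BTBD9 (0.923), MCL1 to PDLIM4 (0.916), PLEKHA8P1 (0.914) and PLOD3 (0.913), BCL2L2 to TAOK2 (0.931), ASH1L (0.893) and PKP4 (0.833), and BCL2A1 to FADD (0.918), TMSB4X (0.895) and RAD51C (0.877).

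For the change with etoposide over 10 lines, among 14001 genes, BCL2A1 was nearest to S100A9 (r = 0.95), a calcium-binding protein of granulocytes and monocytes, then TAF11 (0.932) and NANOS1 (0.918). BCL2L1 was nearest to VPS37B (0.979), SIK3 (0.966) and MAP4K4 (0.954), and F-36P lies far from the other lines in the BCL2L1 change. BCL2 followed PURB (0.904), VAMP3 (0.898) and PYGL (0.89). BCL2L2 followed DENND6A (0.928), TIFA (0.913) and TRIP10 (0.901), and MCL1 had the weakest neighbours, ZFP69B (0.827), MACC1 (0.825) and ZNF354A (0.817).

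Among the members themselves, untreated levels of BCL2 and BCL2L1 had an r of -0.751 over the 11 lines, with F-36P lowest in the first and highest in the second, and an r of -0.414 over the 10 lines without F-36P, a check chosen after the data were seen. BCL2L2 and MCL1 had an r of 0.556, with THP-1 and OCI-AML3 high in both. BCL2A1 had an r between -0.104 and 0.112 with each of the other 4. For the changes over 10 lines, BCL2L1 and BCL2L2 had an r of -0.781 (-0.575 without F-36P, lowest in the first and highest in the second), and MCL1 and BCL2A1 one of -0.516. The log2 changes of BCL2 and BCL2A1 had an r of 0.478. NB-4 had the deepest drop of BCL2 and the smallest change of BCL2A1.

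In OCI-AML2 the discarded etoposide libraries had 324, 313 and 304 CPM of BCL2 against 338, 328 and 305 untreated, a log2 fold change of -0.04 ± 0.049. BCL2A1 had 2.72, 2.96 and 3.12 CPM against 2.31, 3.45 and 2.36 (log2 0.12 ± 0.19), and the groups overlapped. MCL1 (0.04), BCL2L1 (-0.02) and BCL2L2 (0.0056) lay as near to 0. With 0% of genes called induced and 0% called repressed in this line, these values say nothing particular to the members.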

How the data were processed

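The authors aligned reads of stranded mRNA libraries with STAR 2.5.3a to GRCh38.p7 and deposited raw counts per gene (gencode release 25), 1 file per library. The counted strand and the edgeR test (3.20.1 in the submitters' notes) are not given in the sources used here. Of 58037 identifiers, 45 pseudoautosomal copies without reads were left out, and names and exon lengths came from gencode release 44. Members and gene lists were chosen with earlier results of these data known. An erythroid marker of the lists is not reported here, nor are sums that contain it.

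Counts were fitted in edgeR 4.0.16 (R 4.3.3) with filterByExpr (minimum count 10, minimum total 15), TMM and the quasi-likelihood test, 1 fit per cell line, Benjamini-Hochberg over all genes, and calls needed over 2-fold at an FDR below 0.05. Levels are CPM on TMM library sizes of all 66 libraries. Scripts were tested on simulated data. DESeq2 1.42.0 and the other alternatives are described in the closing section. Libraries of a group differed beyond sampling noise (chi-square per degree of freedom at least 2.05). Limits from 0 reads rest on 3 reads and cover counting error only. Named genes were the members, the list genes called in the most lines or set beside a member, and the 3 genes most alike each member with a mean of at least 1 CPM.

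Same-numbered libraries deviated together (r above 0.1 in each pair) in NB-4, OCI-AML2, MOLM-13 and MONO-MAC-6 and not in the other lines. The numbers come from the labels, which name no shared day or culture.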

Additional observations from a re-analysis of the deposited data

Results flagged for a closer look

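The log2 CPM change of BCL2L1 in F-36P, -1.20, stood apart from the other 9 lines, with a gap to the nearest of 0.554 of the whole range, above Dixon's 95% critical value for 10 values. Chance flags about 1 in 20 groups. Without F-36P the mean change of BCL2L1 was 0.27 with an adjusted p of 0.0514 by the exact sign-flip permutation test.

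The change with etoposide differed between the 10 lines for every member by the edgeR F test, with adjusted p = 2.07e-15 for BCL2, 1.75e-16 for BCL2L1, 7.47e-05 for BCL2L2, 3.99e-07 for MCL1 and 2.10e-10 for BCL2A1. So did 74.5% of all genes, and the lines were treated at different concentrations.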

How the results depend on the processing

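Of 753 alternative log2 fold changes of single members in single lines, 712 kept direction and side of the threshold. Without a minimum on the fold change, 22 member tests were induced and 11 repressed, with BCL2 in 10 lines. Of all pooled tests, 27.7% were then higher and 24.4% lower. With a mean of at least 5 CPM, 2 were induced, both of BCL2A1, since the other lines were no longer tested. Leaving out 1 library of every line, the same-numbered one of 1 condition, gave 4 to 7 repressed and 9 induced, BCL2 in 3 to 6 lines and BCL2A1 in 9. BCL2 was at or near 2-fold: it passed in KASUMI-1 with no filter on low counts (-1.02), and in THP-1 it was -0.97 with library size alone and -0.99 in 1 fit of 60 libraries. The difference between lines for BCL2L2 ranged from an adjusted p of 0.00269 to 0.13 (without replicate 3).

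Values near 0 changed sign. With library size alone these were BCL2L1 in NOMO-1 (0.0268), BCL2L2 in MV-4-11 (0.0820) and NB-4 (0.0119) and MCL1 in MV-4-11 (0.04999). With 1 fit of 60 libraries BCL2L2 in MOLM-13 was 0.0113, with at least 5 CPM BCL2L2 in MV-4-11 was 0.0016, and with no filter MCL1 in KASUMI-1 was -0.0189. Leaving out 1 library gave -0.176 to 0.0799 for BCL2L1 in NOMO-1, -0.113 to 0.0073 for BCL2L2 in MOLM-13, -0.0202 to 0.0717 for MCL1 in HL-60 and -0.0029 to 0.0533 for MCL1 in KASUMI-1. The cause was not tested.

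The mean change of the share over 10 lines depended on the length. With raw reads it was -13.3 points for BCL2, -1.14 for BCL2L1, 0.67 for BCL2L2, 12.8 for MCL1 and 0.99 for BCL2A1, and per kilobase of 1 representative transcript -9.11 for BCL2, 0.0793 for BCL2L2 and 6.88 for MCL1.

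With a replicate block the counts were 9 induced and 5 repressed, BCL2A1 in 9 lines and BCL2 in 4, and the difference between lines had an adjusted p of 1.08e-10 for both BCL2 and BCL2L1, 0.000357 for BCL2L2, 8.07e-06 for MCL1 and 3.18e-08 for BCL2A1, so no call changed.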
